A study of Populus tremula x Populus alba with 64 samples.

Results

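The genes described here are the hormone genes among the root genes that the study listed for auxin enhancer (AE) treatment. They are the entries, in a copy of 1998 entries of the study's gene list, whose product name holds auxin, indole-3-acetic acid, ethylene, gibberellin, abscisic acid, cytokinin, jasmonate or brassinosteroid and is not a kinase. 44 entries of 42 genes met this rule, of 62007 transcript entries (called rows here) of 37173 genes that were counted. Auxin accounts for 18 rows, ethylene for 14, cytokinin for 6, gibberellin for 4 and abscisic acid for 2, and 0 rows were named for jasmonate or brassinosteroid. The list was ordered by p-value for AE-roots against control-AE roots at 11 days, so that contrast chose the members and is described below without a test. In that contrast the study itself called 42 genes at an adjusted p under 0.05. The members stand at entries 63 to 1960 of the list, so a place in it is not a call by the study. A number after a gene name is the gene identifier in the files, given where several members share a name.

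The plants were rooted leafy cuttings, 4 to 5 weeks old, of the hybrid poplar Populus tremula × Populus alba, all of the single clone INRA 717-1B4. The bases of all cuttings, controls included, had been treated with rooting powder (Rhizopon AA#2) before planting. Leaves were sprayed with AE, a mixture of the synthetic auxins NAA (3 µM) and IBA (4.5 µM), or with the auxin inhibitor (AI) NPA (100 µM), which blocks polar auxin transport. Each treatment had controls of its own, control-AE and control-AI, both sprayed with the solvent, 1 N KOH. Roots and stems were sampled at 24 h and 11 days, which gives 16 groups. The spray was put on leaves, while RNA was measured in roots and stems only.

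Auxin is conjugated and thereby removed by GH3 enzymes and moved out of cells by PIN efflux carriers. Its signal releases auxin response factors (ARF) from Aux/IAA repressors and rapidly induces many GH3, Aux/IAA and SAUR genes. Cytokinin is activated by LOG enzymes and broken down by cytokinin dehydrogenases (CKX). Ethylene acts through EIN3 and EIL factors on ethylene response factors (ERF), gibberellin through GID1 receptors and abscisic acid through PYR/PYL receptors. In roots, auxin and cytokinin are known for opposing effects on the meristem and on lateral root formation.

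Libraries with at least 1000000 counts were used, 50 of 64 (28 of roots and 22 of stems, 2 to 6 per group). They held 3947526 to 21094004 counts, and the other 14 held at most 545250. Levels are CPM, the counts of a row for each 1000000 counts of the normalised library. Of 11 rows for chlorophyll-binding, photosystem and Rubisco small-subunit proteins, 10 were higher in every stem than in every root, with a summed level of 1104 to 3034 CPM in stems and 12.1 to 134 CPM in roots. In 3 stem libraries at 11 days (AE replicate 5, control-AE replicate 1 and control-AI replicate 2) 1 unnamed row took over 5% of the counts. Control-AE root replicates 2 and 3 at 11 days carry read-depth labels that go against their depth (7784687 counts in replicate 2, 120199 in replicate 3), and replicate 3 was not used.

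The first question was where in the plant these genes are expressed. Roots and stems differed for most of them: in control-AI plants at 11 days (4 roots, 3 stems) 21 rows were higher in roots and 8 were lower, or 29 of 44 (65.9%), where 40.5% of all 23997 rows tested were called. In the controls of both arms at 24 h (6 roots, 4 stems) 23 rows were higher in roots and 9 lower, or 32 of 44 (72.7%), against 57.3% of 24288 rows. Rows higher in roots made up 20% of all rows at 11 days and 28.7% at 24 h, against 47.7% and 52.3% of the members. The members came from a list made in roots, so a gene silent in roots could not enter, and the higher share in roots was in part set by that choice. The total shares called may depend on it too, since all rows were not matched to the members by level. Counts were tested with the quasi-likelihood F test of edgeR, p-values were adjusted over all rows (Benjamini-Hochberg), and a call is an adjusted p under 0.05. At an unadjusted p under 0.05 there were 33 members at 11 days (75%, where 48.3% of all rows were) and 32 at 24 h (72.7%, where 61.6% were). 21 rows were higher and 6 lower at both times. The 11-day comparison left out control-AE roots, which had entered the choice of the members. In whole organs, fewer cells of a type and less RNA per cell cannot be told apart.

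**Figure D1:**
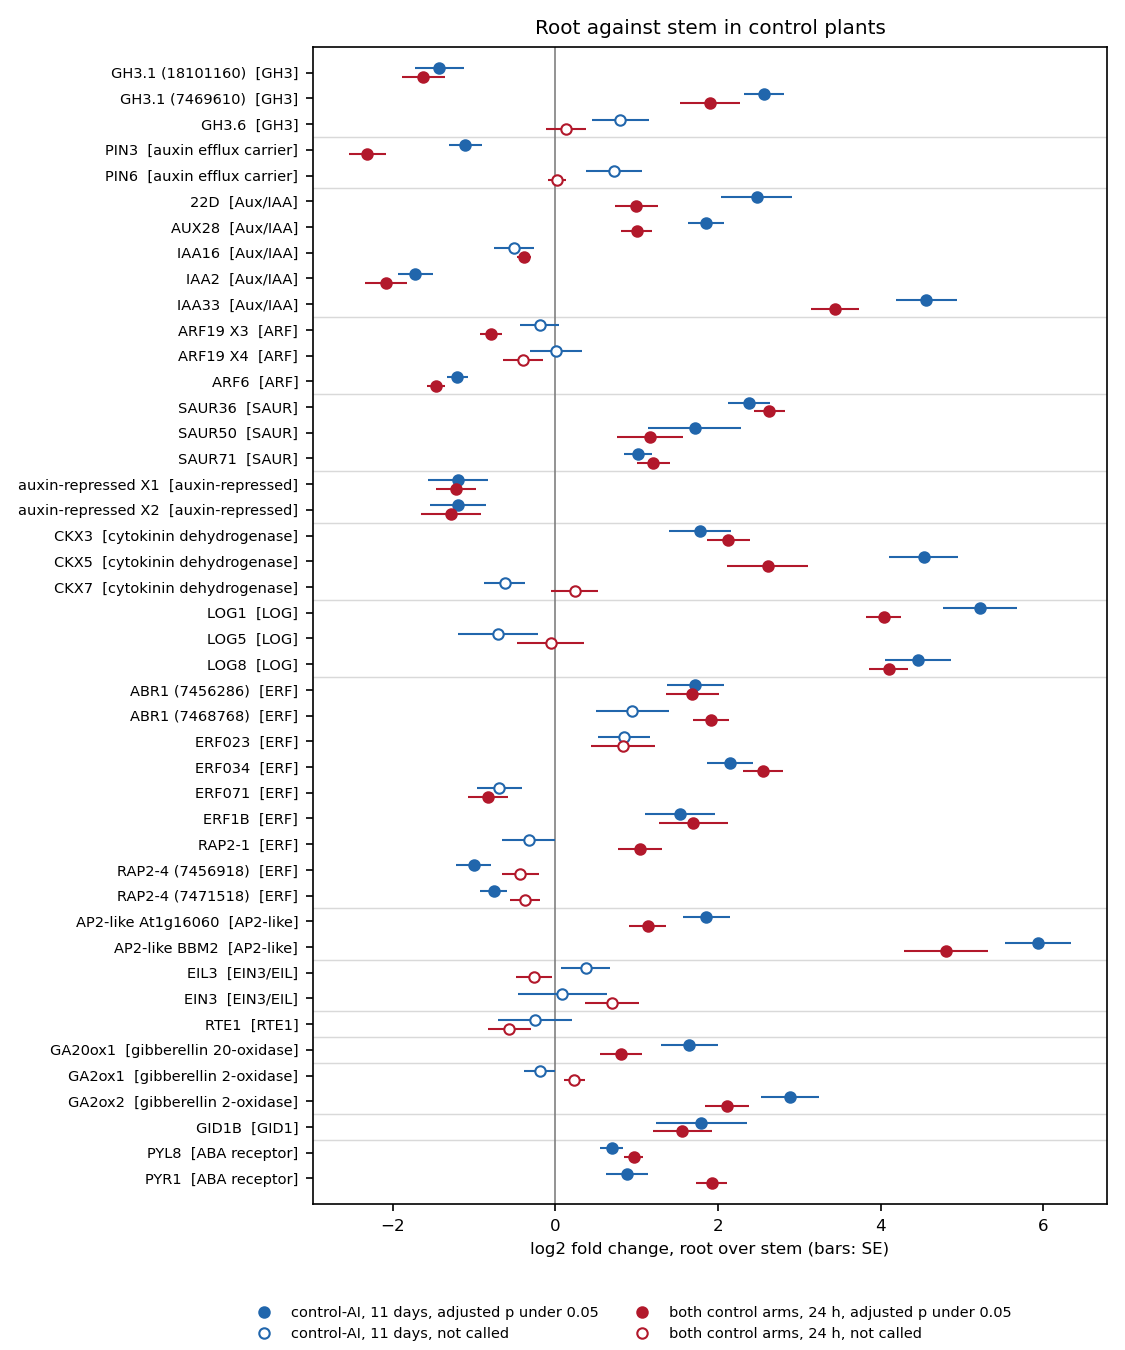
Fitted log2 fold change of root over stem for each of the 44 rows, grouped by class, in control-AI plants at 11 days (4 roots, 3 stems) and in both control arms at 24 h (6 roots, 4 stems). Filled circles are called, open circles are not, and bars are standard errors. The cytokinin genes LOG1 and LOG8, the AP2-like gene BBM2 and IAA33 lie farthest to the root side at 24 h, and CKX5 lies among them at 11 days. IAA2, PIN3, ARF6 and GH3.1 (18101160) lie on the stem side at both times.

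The auxin genes divided between the organs, also within families. At 11 days 7 of the 18 auxin rows were higher in roots, 6 were lower and 5 were not called. GH3.1 (7469610) was a root gene. Its levels were 40.2, 54.9, 54.4 and 52.0 CPM in the 4 control-AI roots at 11 days and 5.41, 8.81 and 10.9 CPM in the 3 stems. Every root lay above every stem, with a log2 fold change of 2.56 (SE 0.25, adjusted p = 4.035e-05), and at 24 h it was 1.90 (SE 0.37, adjusted p = 0.001049). The other GH3.1, 18101160, went the opposite way. It had 21.3, 25.8, 16.3 and 18.4 CPM in the same roots and 73.1, 27.7 and 61.4 CPM in the same stems. Every stem lay above every root, with a log2 fold change of -1.43 (SE 0.30, adjusted p = 0.003995) at 11 days and -1.63 (SE 0.26, adjusted p = 0.0002955) at 24 h. Control-AE plants at 11 days, not in this comparison, had 8.10, 21.97 and 13.03 CPM in roots and 24.9, 16.2 and 14.3 CPM in stems, which overlap. GH3.6 was not called at either time (0.80 and 0.13 on the log2 scale). In the files GH3.1 (7469610) is on NC_037293.1, 8458088 to 8460575, and GH3.1 (18101160) on NC_037291.1, 4873862 to 4876279, each as 3 exons on the plus strand. They share a product name. How alike their sequences are was not analysed here, so whether reads could be assigned to the wrong one is not known.

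The PIN carriers differed likewise. PIN3, an efflux carrier known in Arabidopsis for redirecting auxin when organs bend, was a stem gene. At 11 days it had 42.3, 45.2, 25.5 and 31.5 CPM in control-AI roots and 84.7, 73.9 and 72.4 CPM in stems. Roots and stems did not overlap, and the log2 fold change was -1.11 (SE 0.20, adjusted p = 0.002029) at 11 days and -2.31 (SE 0.23, adjusted p = 6.443e-06) at 24 h. PIN6 was not called (0.72 at 11 days and 0.02 at 24 h).

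Among the Aux/IAA genes, IAA33 lay on the root side and IAA2 on the stem side. IAA33 is a member of the family known in Arabidopsis to lack the domain through which auxin triggers degradation. It had 19.1, 25.7, 27.6 and 31.97 CPM in control-AI roots at 11 days and 1.33, 0.215 and 1.32 CPM in stems. That is a log2 fold change of 4.56 (SE 0.38, adjusted p = 1.631e-05), and at 24 h it was 3.44 (SE 0.29). IAA2 had 8.04, 9.95, 7.26 and 5.44 CPM in the roots and 24.8, 21.9 and 28.2 CPM in the stems, with a log2 fold change of -1.72 (SE 0.22, adjusted p = 0.0002073), and -2.08 at 24 h. The neighbours 22D and AUX28, 8813 bp apart on NC_037289.1, were both higher in roots (2.48 and 1.85 at 11 days, 1.00 for each at 24 h). IAA16, which at a median of 230.3 CPM per kilobase in roots was the most abundant of these 5, was lower in roots at 24 h only (-0.39, adjusted p = 0.002197). At 11 days its log2 fold change was -0.51 and was not called.

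The response factors and the growth genes also took sides. ARF6, an activator of auxin-responsive genes, was below every stem in every root: over all libraries it ranged from 56.8 to 111 CPM in the 28 roots and from 135 to 216 CPM in the 22 stems. Its log2 fold change was -1.21 (SE 0.13, adjusted p = 7.147e-05) at 11 days and -1.47 at 24 h. ARF19, known in Arabidopsis for lateral root formation, was not called at 11 days in either of its transcript variants (-0.19 and 0.01), and variant X3, the main one with a median of 72.9% of the gene's counts in roots, was lower in roots at 24 h (-0.79, adjusted p = 0.0005082). The 3 SAUR rows, genes of a family that promotes cell expansion, were all higher in roots at both times, with SAUR36 at 2.38 and 2.63. The call of SAUR50 (1.71 at 11 days and 1.17 at 24 h) was lost when any of 5 libraries was left out at 11 days and any of 4 at 24 h, with adjusted p up to 0.1225, and its 11-day value was 2.41 without control-AI stem replicate 2. The auxin-repressed gene, of a family named for mRNA that auxin lowers, was lower in roots. Its main variant X1 had 229, 535, 332 and 148 CPM in roots and 576, 849 and 685 CPM in stems at 11 days, a log2 fold change of -1.20 (SE 0.37, adjusted p = 0.02748). This call was lost without control-AI stem replicate 2, root replicate 1 or root replicate 3 (adjusted p = 0.08904, 0.07524 and 0.05684), and stem replicate 2 is the library with the unnamed abundant row. At 24 h it was -1.23 (adjusted p = 0.001376).

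Cytokinin genes on both sides of the pathway were root genes. LOG1 and LOG8, which release active cytokinin, and CKX5 and CKX3, which degrade it, were higher in roots at both times, and 2 of the 6 rows (CKX7 and LOG5) were called at neither. CKX3 was at 1.78 and 2.13, and its 11-day value was 2.44 without control-AI stem replicate 3. LOG1 had 39.3, 34.4, 57.0 and 38.9 CPM in control-AI roots at 11 days and 2.21, 0.429 and 0.629 CPM in stems. Its log2 fold change was 5.22 (SE 0.45, adjusted p = 2.15e-05) at 11 days (6.18 without control-AI stem replicate 1) and 4.04 (SE 0.21) at 24 h. LOG8 was close to it, at 4.46 (SE 0.41) and 4.10 (SE 0.24). Levels in stems had another order: per kilobase of transcript, the median over all stems was 11.5 CPM for LOG5, 2.25 for LOG8 and 1.43 for LOG1, and over all roots it was 6.26, 35.4 and 32.8 CPM. CKX5 had 10.1, 8.50, 7.57 and 13.5 CPM in the roots and 0.221, 0.859 and 0.377 CPM in the stems, a log2 fold change of 4.53 (SE 0.43, adjusted p = 3.429e-05). At 24 h it was 2.61 (SE 0.50), where 1 stem, control-AE replicate 2, stood at 5.69 CPM and the other 3 at 0.5002 to 1.14 CPM. Without that stem it was 3.73. CKX7 differed by -0.62 (SE 0.26) at 11 days and 0.24 (SE 0.29) at 24 h.

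Of the 14 rows named for ethylene, 5 were higher in roots and 2 lower at 11 days, and 7 were higher and 1 lower at 24 h. They were grouped by product name, which does not show that each acts in the ethylene response. BBM2, an AP2-like factor of the BABY BOOM group that in Arabidopsis maintains the root meristem, carries ethylene only in its product name. It showed the largest difference of the 44 rows at both times. Its levels were 46.3, 35.0, 39.1 and 34.9 CPM in control-AI roots at 11 days and 0.552, 1.503 and 0.314 CPM in stems. The log2 fold change was 5.93 (SE 0.41, adjusted p = 6.21e-06) at 11 days and 4.80 (SE 0.52) at 24 h. At 24 h 1 stem, control-AI replicate 3, stood at 4.77 CPM and the other 3 at 0.300 to 0.850 CPM, and without it the log2 fold change was 6.24. At 11 days it was 6.54 without control-AI stem replicate 2. The other AP2-like row, At1g16060, had 6.90, 7.99, 9.94 and 11.1 CPM in the same roots and 2.98, 1.503 and 2.58 CPM in the same stems, and was called higher in roots at both times (1.86 and 1.13). Among the ERF rows, ERF034 (2.15 and 2.55), ABR1 (7456286) (1.72 and 1.68) and ERF1B, a direct EIN3 target in Arabidopsis (1.53 and 1.70), were higher in roots at both times. The call of ERF1B at 11 days was lost without control-AI stem replicate 3 (adjusted p = 0.09976), and at 24 h its log2 fold change was 2.40 without control-AE stem replicate 3. At 24 h alone, ABR1 (7468768) was called higher in roots (1.92, SE 0.22, adjusted p = 2.328e-05), as was RAP2-1 (1.04, SE 0.27, adjusted p = 0.007111), and ERF071 was called lower (-0.83, SE 0.24, adjusted p = 0.01252). That last call was lost without control-AI stem replicate 1 (adjusted p = 0.07255). Both RAP2-4 copies, abundant factors at 105 to 518 CPM in roots, were lower in roots at 11 days (-1.004 and -0.76) and were not called at 24 h (-0.43 and -0.37). The rows for EIN3, EIL3 and RTE1 were called at neither time, with log2 fold changes between -0.57 and 0.70. The EIN3 row is a minor variant that held a median of 13.3% of the gene's counts in roots and 5.86% in stems, so it does not stand for the gene.

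Of the 4 gibberellin rows 3 were higher in roots at both times, as were both abscisic acid receptors. GA2ox2, which inactivates gibberellin, had 7.83, 5.87, 9.71 and 6.63 CPM in control-AI roots at 11 days and 1.44, 0.429 and 0.943 CPM in stems, a log2 fold change of 2.89 (SE 0.36, adjusted p = 0.0001768). GA20ox1, of the enzymes that make active gibberellin precursors, was also higher (1.64, and 0.81 at 24 h), but the 24-h call was lost without control-AE stem replicate 3 or control-AI stem replicate 3 (adjusted p = 0.05376 and 0.05887). The row of GID1B, a gibberellin receptor, differed by 1.79 and 1.56. It is a minor variant with a median of 19.9% of the gene's counts in roots and 15.1% in stems, so it does not stand for the gene. Its 11-day call was lost without any 1 of 3 libraries (adjusted p up to 0.09736), and its value was 2.50 without control-AI stem replicate 1. GA2ox1 was called at neither time (-0.19 and 0.23). The log2 fold changes of the abscisic acid receptors were 0.69 and 0.96 for PYL8 and 0.88 and 1.93 for PYR1. The 11-day call of PYR1 was lost without control-AI stem replicate 1 or root replicate 2 (adjusted p = 0.05093 and 0.05886).

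**Figure D2:**
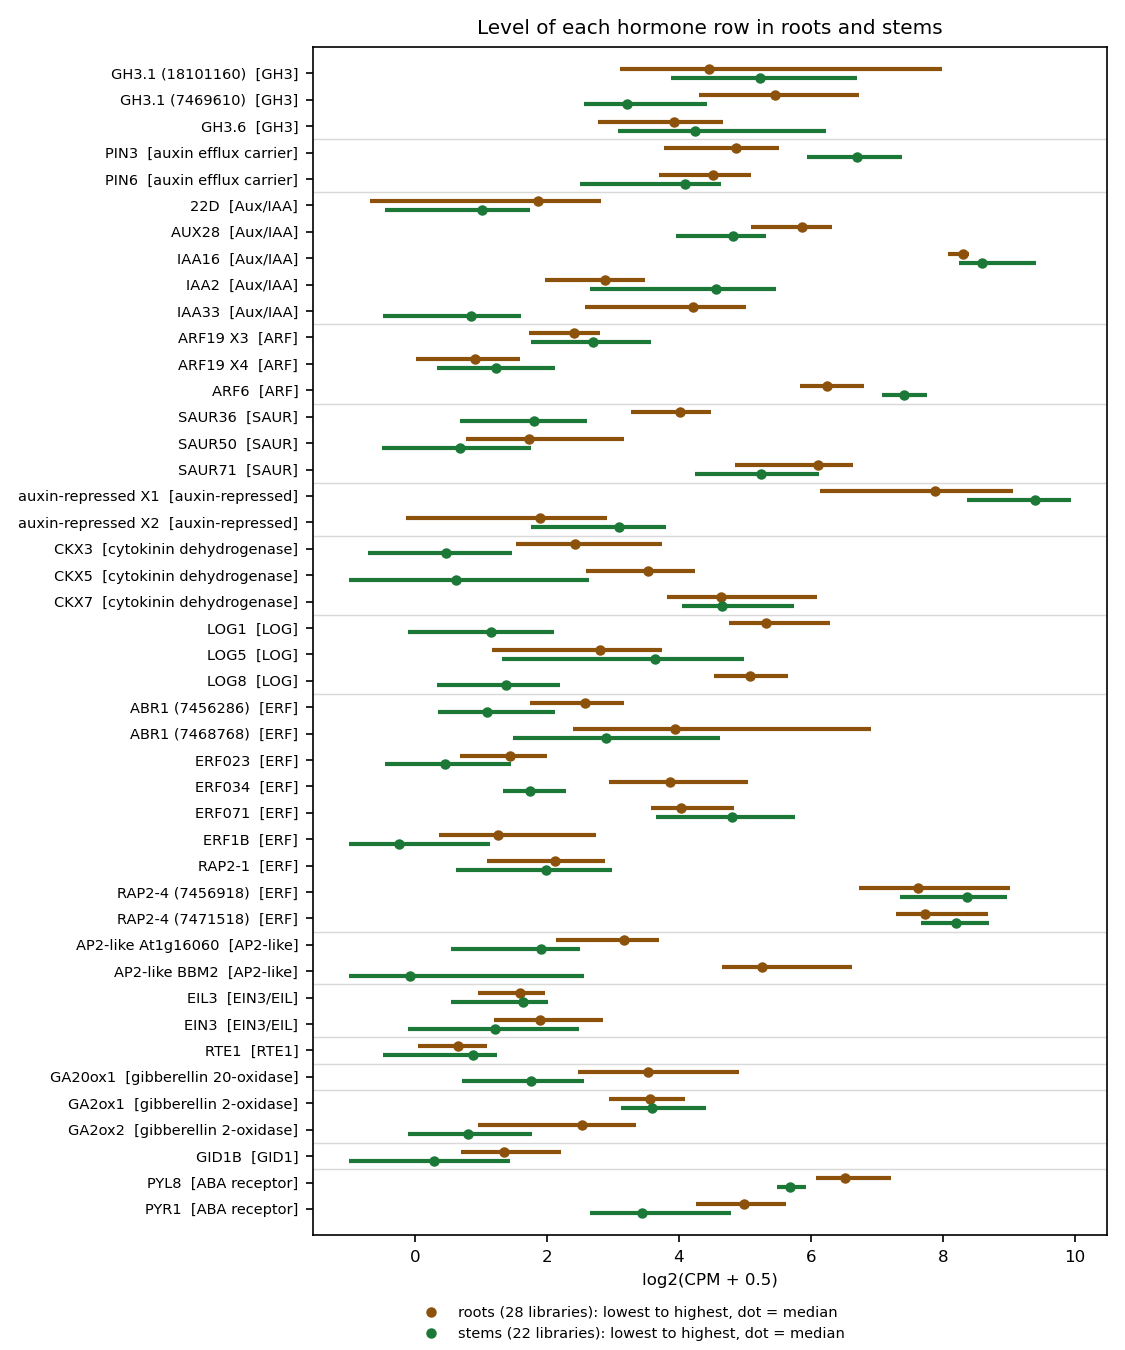
Lowest, median and highest level of each row in 28 root and 22 stem libraries of all treatments, as log2(CPM + 0.5), grouped by class. The brown (root) and green (stem) lines do not overlap for 10 rows, of which 8 lie higher in roots and 2, ARF6 and PIN3, lie higher in stems.

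The organ difference held over the treated plants for 10 of the rows. Over all 50 libraries every root was above every stem for 8 rows (CKX3, BBM2, LOG8, LOG1, PYL8, ERF034, IAA33 and SAUR36) and every stem above every root for 2 (ARF6 and PIN3). The other 34 rows overlapped. Among all rows compared in this way, 12.3% did not overlap, 6.07% with roots above and 6.22% with stems above. The lowest root for LOG1 had 26.5 CPM and the highest stem 3.80 CPM. PIN3 reached 45.2 CPM in the highest root and was at 60.9 CPM in the lowest stem. These ranges include the 11-day AE and control-AE roots that chose the members.

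The contrast that chose the rows, 6 AE-roots against 3 control-AE roots at 11 days, is given as values only. By the ratio of mean CPM, 22 rows were higher and 22 lower in AE-roots. All 3 GH3 rows and both PIN rows were on the higher side, all 3 ARF rows and both auxin-repressed rows on the lower side. For 3 rows every AE-root was above every control-AE root, and for 0 rows below. With 1 library left out the rows without overlap numbered 3 to 18: 18 without control-AE replicate 4, 10 without control-AE replicate 2 or AE replicate 3, 9 without control-AE replicate 5, 7 without AE replicate 4 and 5 without AE replicate 2. Over all rows 2.51% did not overlap, 1.31% with AE above and 1.2% with AE below. Nothing is read from these shares, since this contrast made the list. The 4 control-AI roots of the same age, which had the same solvent spray, overlapped the AE-roots for all 3.

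The 3 rows were ABR1 (7456286), LOG1 and RTE1, a regulator of an ethylene receptor in Arabidopsis. ABR1 (7456286) ran from 4.80 over a median of 5.86 to 8.48 CPM in AE-roots and had 4.49, 2.88 and 2.86 CPM in control-AE roots (control-AI roots 4.34 to 8.03 CPM). LOG1 ran from 34.6 over 38.8 to 48.9 CPM against 30.5, 31.3 and 26.5 CPM (control-AI roots 34.4 to 57.0 CPM). RTE1 ran from 0.995 over 1.17 to 1.64 CPM against 0.872, 0.586 and 0.869 CPM (control-AI roots 0.783 to 1.22 CPM). The AE-roots thus stood above their own controls and within the range of the other control arm or overlapping it.

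The largest mean ratio among auxin genes was that of GH3.1 (18101160), and 1 library carried most of it. AE-root replicates 1 to 6 had 18.3, 252, 35.3, 25.9, 72.5 and 23.3 CPM, and control-AE roots had 8.10, 21.97 and 13.03 CPM. The means were 71.3 ± 90.8 CPM (SD, n = 6) and 14.4 ± 7.03 CPM (SD, n = 3), and 1 control lay above the lowest AE-root. The same AE-root, replicate 2, was also the highest for GH3.1 (7469610), which had 39.5, 106, 32.4, 42.6, 95.3 and 48.1 CPM against 23.5, 32.6 and 24.9 CPM, or 60.7 ± 31.6 against 27.0 ± 4.88 CPM. GH3.6 averaged 16.2 ± 3.59 CPM against 10.3 ± 3.57 CPM. Replicates 2 and 5 were the highest AE-roots for all 3 GH3 rows. The control-AI roots of that age overlapped the AE-roots for all 3. They had 16.3 to 25.8 CPM of GH3.1 (18101160), 40.2 to 54.9 CPM of GH3.1 (7469610) and 16.1 to 25.0 CPM of GH3.6.

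PIN6 averaged 30.9 ± 2.44 CPM in AE-roots and 20.4 ± 6.55 CPM in control-AE roots. PIN3 averaged 28.5 ± 1.01 against 21.4 ± 7.88 CPM, with all 6 AE-roots between 26.9 and 29.5 CPM and the controls at 20.2, 29.8 and 14.2 CPM. The control-AI roots of that age had 16.4 to 29.5 CPM of PIN6 and 25.5 to 45.2 CPM of PIN3, and overlapped the AE-roots for both. Aux/IAA genes went both ways by log2 ratio of the means: 22D 0.98, IAA33 0.63, AUX28 0.37, IAA16 -0.11 and IAA2 -0.56. The ARF rows were at -0.24 (ARF6), -0.49 (ARF19 X3) and -0.57 (ARF19 X4). The last members of the list copy were SAUR36 (15.7 ± 2.06 against 12.0 ± 2.51 CPM) and ERF023 (2.44 ± 0.493 against 3.25 ± 0.342 CPM), and hormone genes beyond the copy were not analysed here.

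Control-AE replicate 5 set the direction for 4 rows. ABR1 (7468768) had 119.7 CPM in that library and 5.23 and 4.78 CPM in the other control-AE roots, against 6.16 to 11.7 CPM in AE-roots. The log2 ratio was -2.26 with the library and 0.85 without it. The signs of BBM2 (-0.73 to 0.13), LOG5 (-0.81 to 0.34) and PYL8 (-0.42 to 0.04) turned as well, and leaving out replicate 2 or 4 turned 0 rows. The auxin-repressed X1 row had 506 CPM in replicate 5 and 188 and 135 CPM in the other controls, and its ratio moved from -0.97 to -0.19.

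**Figure D3:**
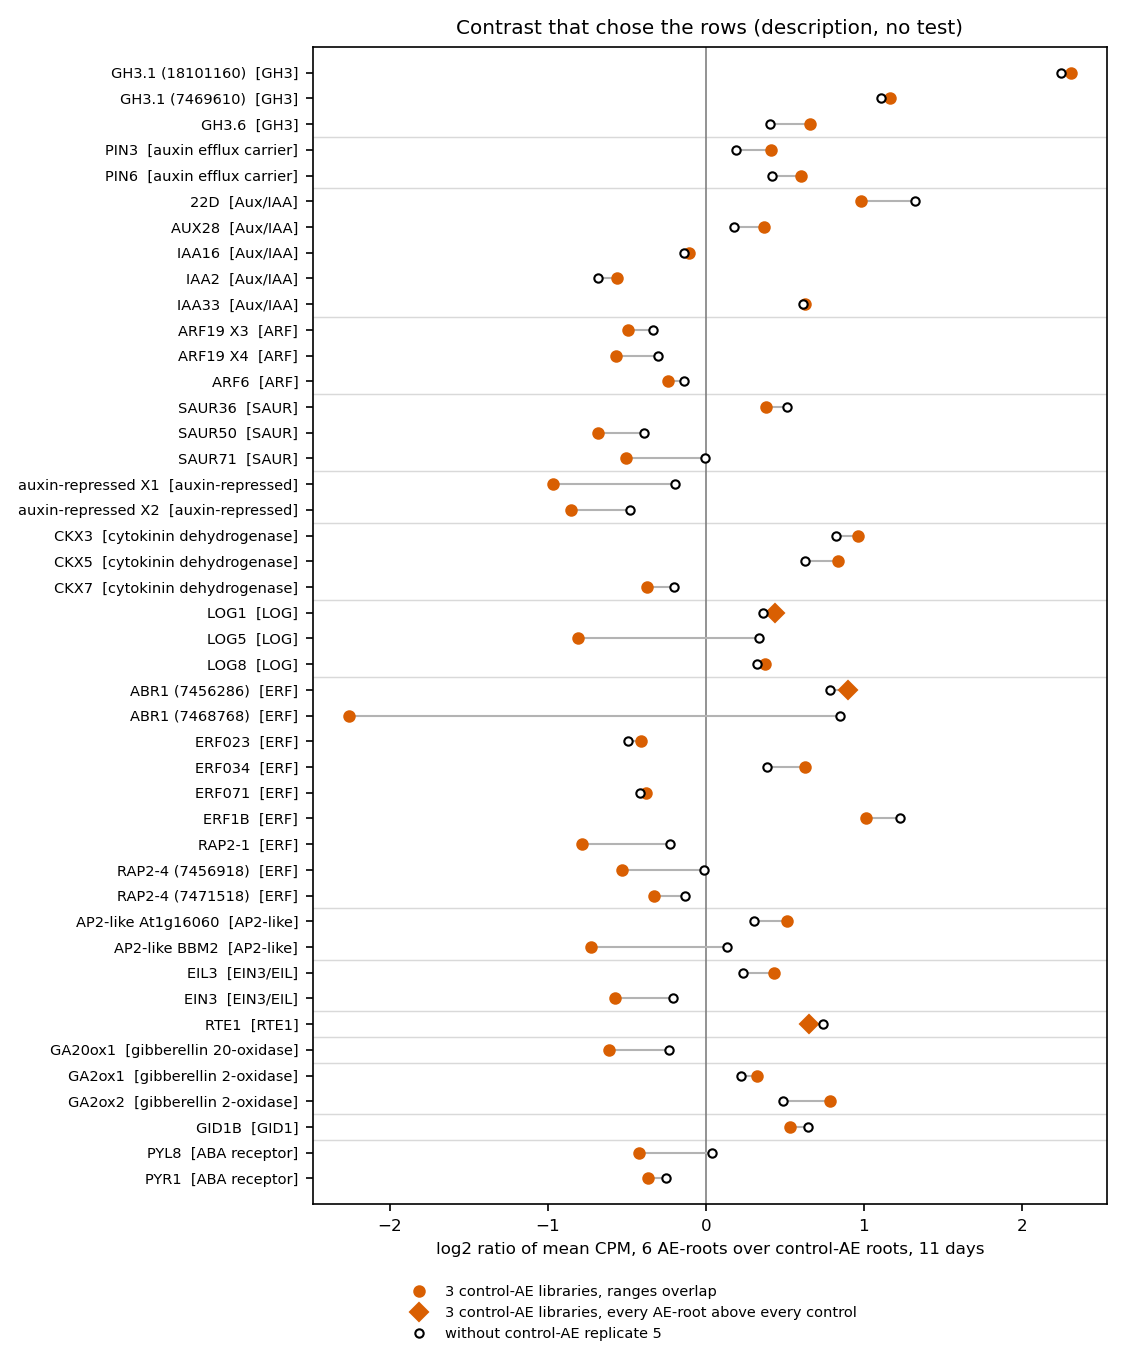
Log2 ratio of the mean level in 6 AE-roots to that in control-AE roots at 11 days for each row, with all 3 controls (orange) and without control-AE replicate 5 (white). Diamonds mark the 3 rows in which every AE-root was above every control. The white circle lies across the zero line from the orange one for ABR1 (7468768), BBM2, LOG5 and PYL8.

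The same treatment in other samples, which did not choose the rows, called 0 members by edgeR. In AE-roots at 24 h (3 against 3) 44 members were tested and 0% of all 22107 rows were called. 1 member had an unadjusted p under 0.05 (2.27%, where 3.65% of all rows did), ERF1B at 0.76 (SE 0.32, adjusted p = 0.9998). It had 4.82, 3.15 and 6.21 CPM in AE-roots and 3.25, 2.99 and 2.06 CPM in control-AE roots, which overlap. The members' log2 fold changes ran from -0.83 to 0.76 with a median of -0.08, and that of all rows was 0.00. In AE-stems at 24 h (3 against 2) 40 members passed the filter on low counts, 0% of all rows were called, and 0 members had an unadjusted p under 0.05 (3.54% of all rows did). DESeq2 also called 0 members in both, of 42 tested in roots and 38 in stems, where it called 10 of 20712 and 43 of 22153 rows. The GH3 rows were mixed in AE-roots at 24 h, with GH3.1 (7469610), GH3.1 (18101160) and GH3.6 at 0.11, 0.63 and -0.23. In AE-stems at 24 h all 3 were on the lower side, at -0.40, -0.57 and -0.44, and were not called. For GH3.6 the 3 AE-stems, at 15.4, 12.0 and 15.9 CPM, lay below both control-AE stems, at 23.0 and 16.4 CPM.

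In AE-stems at 11 days (5 against 3) the 3 GH3 rows had positive fold changes, unlike at 24 h, and were not called. By edgeR 43 members were tested and 0 were called, with 0% of all 23395 rows called. By DESeq2 36 members were tested and 0 were called, with 11 of 20562 rows called. 7 members had an unadjusted p under 0.05 (16.3%, where 3.66% of all rows did), among them all 3 GH3 rows. GH3.1 (18101160) had 34.2, 52.7, 24.1, 33.3 and 74.3 CPM in AE-stems and 24.9, 16.2 and 14.3 CPM in control-AE stems, a log2 fold change of 1.27 (SE 0.36, adjusted p = 0.9998). GH3.1 (7469610) had 9.66, 21.1, 7.55, 8.97 and 19.3 CPM against 7.60, 7.94 and 6.21 CPM, or 0.90 (SE 0.35). GH3.6 had 23.1, 74.5, 29.1, 28.8 and 63.3 CPM against 20.8, 24.6 and 25.8 CPM, or 0.89 (SE 0.37). In each, 1 AE-stem lay within or below the controls, and AE replicates 3 and 6 were the highest. The control-AI stems of that age had 73.1, 27.7 and 61.4 CPM of GH3.1 (18101160), within the AE-stem range and above all 3 control-AE stems. AUX28 was at 0.55, ABR1 (7456286) at 0.83, ERF071, a hypoxia-responsive factor in Arabidopsis, at 0.78, and CKX7 at -0.73, all with an adjusted p of 0.9998.

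**Figure D4:**
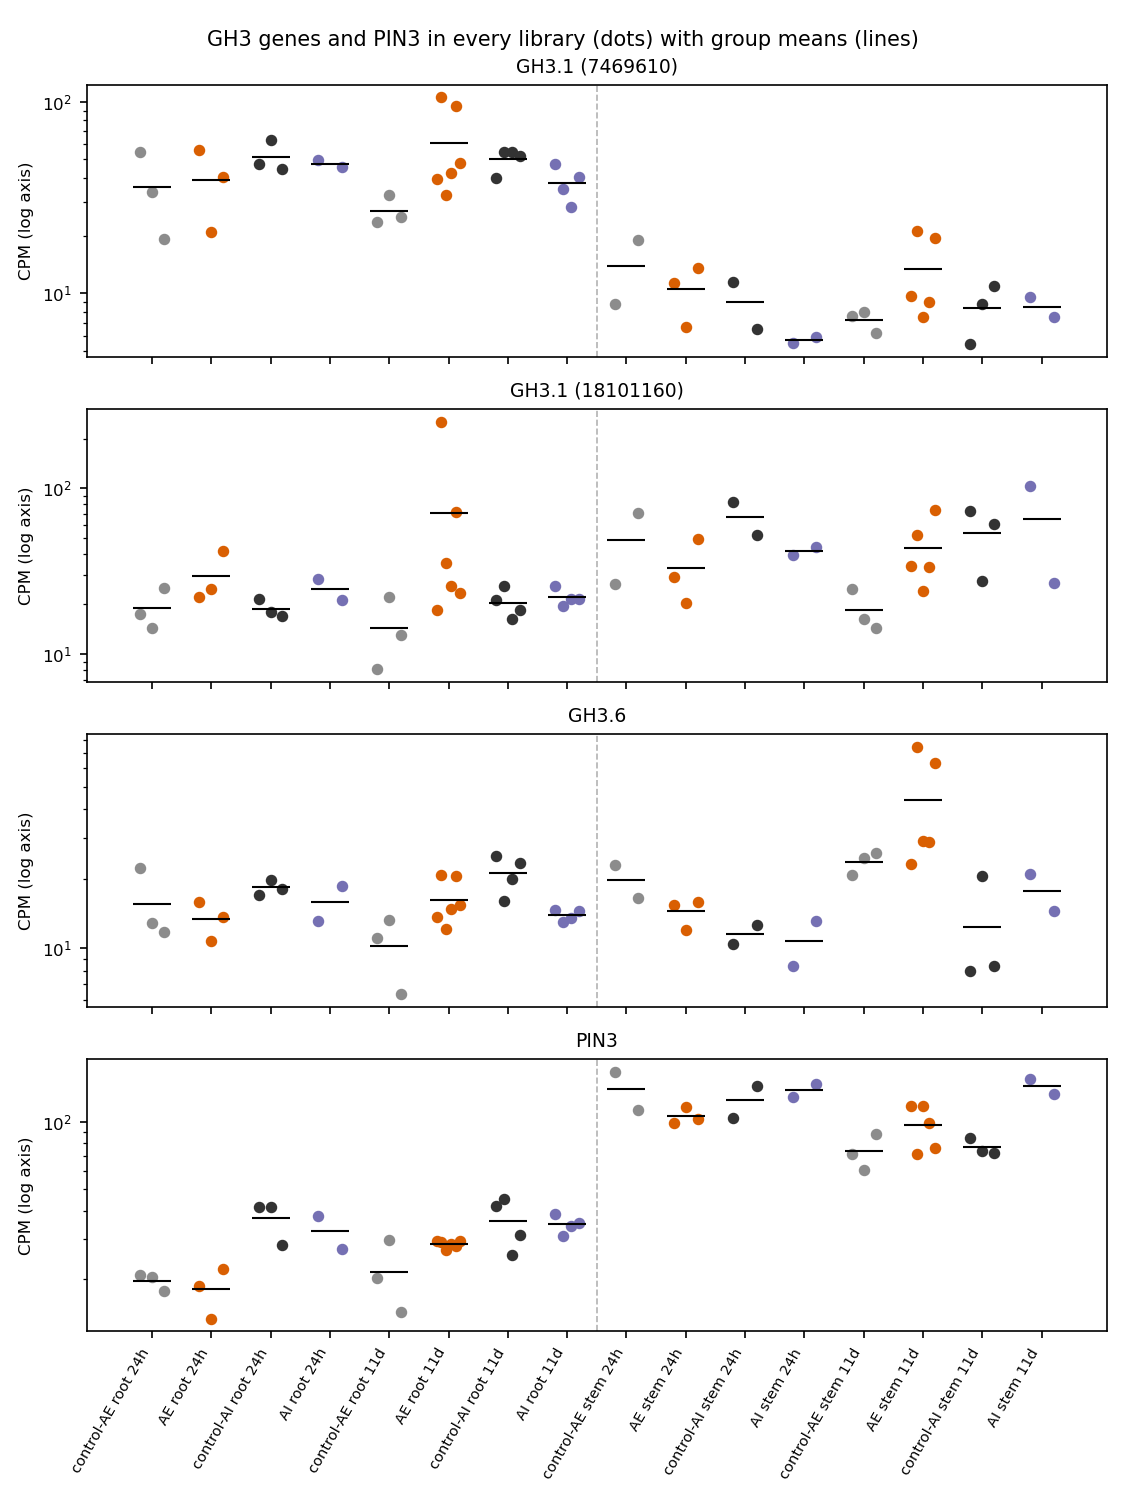
Level in CPM on a log axis of the 3 GH3 genes and PIN3 in every used library (dots) of the 16 groups, with group means as lines and roots left of the dashed line. The 2 GH3.1 genes lie at opposite levels in roots and stems, 1 AE-root at 11 days reaches 252 CPM for GH3.1 (18101160), and no root reaches a stem for PIN3.

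**Figure D5:**
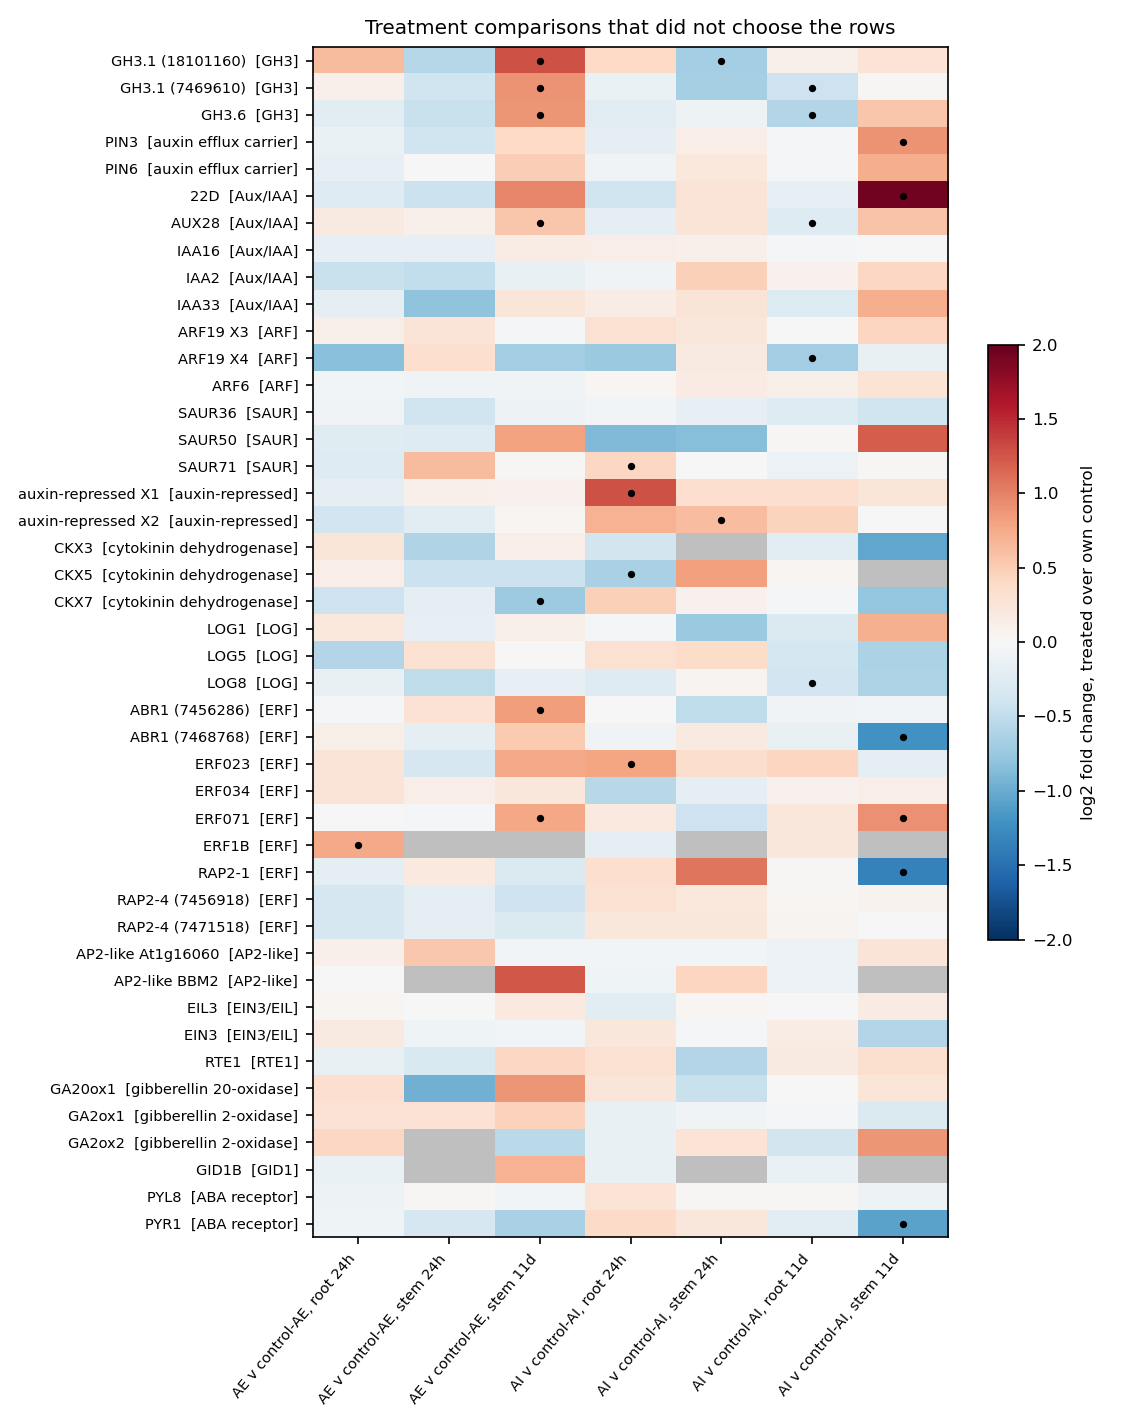
Fitted log2 fold change of treated over own control for the 44 rows in the 7 treatment comparisons that did not choose them. Dots mark an unadjusted p under 0.05, grey cells did not pass the filter on low counts, and 0 cells passed an adjusted p of 0.05.

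The auxin inhibitor also called 0 members in each of 4 comparisons by edgeR. In AI-roots at 11 days (4 against 4) 5 of 44 members had an unadjusted p under 0.05 (11.4%, where 3.89% of all rows did), and 0% of all rows were called. All 5 were lower in AI-roots: GH3.6 at -0.59 (SE 0.14), GH3.1 (7469610) at -0.41 (SE 0.16), ARF19 X4 at -0.69, LOG8 at -0.38 and AUX28 at -0.26, each with an adjusted p of 0.9845. ARF19 X4 is a minor variant, with a median of 22.1% of the gene's counts in roots, and was at 0.818 to 1.49 CPM in AI-roots. The main variant X3 overlapped, at 4.49 to 6.18 CPM in AI-roots and 3.57 to 6.27 CPM in control-AI roots. GH3.6 had 14.6, 12.998, 13.5 and 14.5 CPM in AI-roots and 25.0, 16.1, 19.96 and 23.4 CPM in control-AI roots. The groups did not overlap, but the difference was not called over all rows. The third GH3 row, GH3.1 (18101160), was at 0.12.

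In AI-roots at 24 h (2 against 3) 4 members had an unadjusted p under 0.05 (9.09%, where 7% of all rows did), and 0% of all rows were called. The auxin-repressed X1 row had 523 and 243 CPM in AI-roots and 132, 117 and 225 CPM in control-AI roots, a log2 fold change of 1.27 (SE 0.37, adjusted p = 0.7074). The groups did not overlap, the value was 0.59 without AI-root replicate 2, and the control-AE roots of the same time, at 249, 357 and 462 CPM, lay in the AI range. SAUR71 was at 0.42, ERF023 at 0.79 and CKX5 at -0.64. In AI-stems at 24 h (2 against 2) 2 of 41 members tested had an unadjusted p under 0.05 (4.88%, where 1.55% of all rows did), with 0% of all rows called. These were GH3.1 (18101160) at -0.68 (39.7 and 44.4 CPM against 82.3 and 52.5 CPM) and the minor auxin-repressed variant X2 at 0.62, each with an adjusted p of 1. Without control-AI stem replicate 3, which leaves 1 control, GH3.1 (18101160) was at -0.96. DESeq2 called 0 members and 0 of all rows in these root and stem comparisons at 24 h and in AI-roots at 11 days.

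In AI-stems at 11 days (2 against 3) 0.0127% of all rows were called and 0 of 40 members tested. 6 members had an unadjusted p under 0.05 (15%, where 9.02% of all rows did). PIN3, a carrier of the auxin flow that NPA blocks, had 155 and 133 CPM in AI-stems and 84.7, 73.9 and 72.4 CPM in control-AI stems. The groups did not overlap, and the log2 fold change was 0.90 (SE 0.17, adjusted p = 0.2305). DESeq2 called this 1 member (0.90, adjusted p = 0.01043) and 333 of 23659 rows. The Aux/IAA gene 22D was at 1.94 (SE 0.52) and ERF071 at 0.91, while RAP2-1 was at -1.35, ABR1 (7468768) at -1.21 and PYR1 at -1.06, with adjusted p from 0.3584 to 0.5227 by edgeR.

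The difference between the treatments was tested at 24 h in roots. The AE change minus the AI change was called for 0 of 44 members and 0% of all rows by edgeR and for 0 members and 0 of all rows by DESeq2. 1 member had an unadjusted p under 0.05 (2.27%, where 4.49% of all rows did), SAUR71 at -0.67 (SE 0.30, adjusted p = 0.9701).

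The control arms themselves differed at 24 h in roots, although both had the same spray. 3 of 44 members were called (6.82%), close to the 6.56% of all 22241 rows (2.54% higher and 4.02% lower in control-AE). At an unadjusted p under 0.05 there were 12 (27.3%, against 25.1% of all rows). ERF034 had 11.1, 10.6 and 10.7 CPM in control-AE roots and 30.8, 32.5 and 24.0 CPM in control-AI roots. This is a log2 fold change of -1.42 (SE 0.14, adjusted p = 0.009584), lower in control-AE, and was larger than any fitted AE change of a member in roots at 24 h. PIN3 had 20.8, 20.4 and 17.6 CPM in control-AE roots and 41.7, 41.5 and 28.4 CPM in control-AI roots, or -0.91 (SE 0.17, adjusted p = 0.02361). RAP2-4 (7471518) had 301, 301 and 413 CPM against 201, 158 and 223 CPM, or 0.81 (SE 0.17, adjusted p = 0.03473). In all 3 the arms did not overlap. The calls of PIN3 and RAP2-4 (7471518) were each lost without any 1 of 4 libraries (adjusted p up to 0.09854 and 0.1198), and that of ERF034 without control-AI root replicate 1 (adjusted p = 0.05087). The count of members was then 0 (29 of 22892 rows). It was 1 without control-AI replicate 2 or control-AE replicate 2 or 3 (495 of 22818, 62 of 22884 and 397 of 22896 rows). Without control-AE replicate 1 it was 5 (1518 of 22850 rows). What separated the arms is not given in the labels, so arm and any batch cannot be told apart.

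Between 24 h and 11 days 1 member was called in the controls. In control-AI roots 0 of 44 members and 0% of all rows were called by edgeR, and 4 members had an unadjusted p under 0.05 (9.09%, where 12.8% of all rows did). DESeq2 called 1 of 42 members tested and 393 of 19671 rows. ERF034 was at -1.26 (SE 0.18, adjusted p = 0.11), with 9.11, 12.9, 14.5 and 12.2 CPM at 11 days against the 24-h values above. In control stems (6 at 11 days, 4 at 24 h) 1 of 42 members tested was called (2.38%), where 0.855% of all rows were (0.104% higher and 0.751% lower at 11 days). 11 members had an unadjusted p under 0.05 (26.2%, where 14.1% of all rows did). PIN3 had 71.9, 60.9, 88.1, 84.7, 73.9 and 72.4 CPM at 11 days and 166, 112, 104 and 144 CPM at 24 h. The times did not overlap, and PIN3 fell by 0.81 on the log2 scale (SE 0.16, adjusted p = 0.04271). This call was lost without any 1 of 9 libraries, with adjusted p from 0.05192 to 0.1554, and without both control libraries that hold the abundant unnamed row (adjusted p = 0.1605). Without the other one, control-AI stem replicate 3 at 11 days, 3 members were called (706 of 22983 rows). The next lowest was 22D at -1.72 (SE 0.35, adjusted p = 0.05422).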

How the data were processed

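PolyA RNA of roots and stems was sequenced as paired reads, and the submitters' processing notes name FastQC, STAR and Subread featureCounts. The deposited values are raw counts per transcript row that the authors made from reads aligned to the Populus trichocarpa genome. The hybrid's reads were thus counted on models of another species. The files name sequences as RefSeq does, the build behind them was not settled, and the use of strand in counting is not stated in these sources, so possible near copies, variants and overlapping genes are uncertain. The members, gene classes and tests were chosen with earlier results of these data known. The fold changes and p-values in the study's gene list are the authors' own comparison and were not used.

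Libraries under 1000000 counts were left out (14 of 64). No 2 used libraries were identical, and the lowest chi-square per row of 63 replicate pairs was 6.61. The study calls its replicates biological, but the labels do not tie libraries to plants, so p-values measure the spread between these libraries. Counts were tested with edgeR 4.0.16 (R 4.3.3; TMM factors, filterByExpr with minimum count 10 and total 15, quasi-likelihood F test, Benjamini-Hochberg over all rows, threshold 0.05) in the compared groups only, with the control arm as a covariate where both arms entered. SE is the log2 fold change over the root of F. CPM used TMM factors over all 50 libraries. DESeq2 1.42.0, median-of-ratios factors, no filter, all libraries, counts summed per gene, a replicate block, 1 fit of all groups, both control arms and leaving out each library were tried, and the code was tested on simulated data. By rule the auxin classes in 11-day roots, members called in treatment or control-arm comparisons, the 4 largest called tissue or time differences each way, members without overlap in 11-day AE-roots and the last 2 of the list were named, and others were named as examples of their class after their values were seen. No other hormone genes of the genome, root marker genes or sequences were analysed here.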

Additional observations from a re-analysis of the deposited data

Results flagged for a closer look

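In groups of 4 to 6 libraries, 11 of 176 combinations of row and group had 1 library far from the others by Dixon's test at its 95% limit, where chance gives about 1 in 20. In AE-roots at 11 days GH3.1 (18101160) was at 252 CPM in replicate 2 and at 18.3 to 72.5 CPM in the other 5. In the same group replicate 4 stood high for IAA2 (7.73 CPM, others 4.80 to 5.57), ARF19 X4 (1.82 CPM, others 0.996 to 1.29) and EIL3 (3.43 CPM, others 2.46 to 2.75), and replicate 5 stood low for ERF1B (1.12 CPM, others 1.87 to 2.29).

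In AE-stems at 11 days replicate 1 stood high for ABR1 (7468768) (24.1 CPM, others 3.20 to 7.86) and ERF1B (1.53 CPM, others 0 to 0.333), and replicate 5, the library in which 1 unnamed row took over 5% of the counts, for CKX3 (2.24 CPM, others 0.384 to 0.827). In AI-roots at 11 days replicate 5 stood high for GA2ox2 (7.504 CPM, others 5.15 to 5.33) and ARF6 (81.7 CPM, others 72.9 to 74.4), and replicate 3 stood low for IAA16 (304 CPM, others 319 to 322).

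For 2 members the AI-treated and control libraries did not overlap in opposite directions in different samples. CKX5 had a log2 fold change of -0.64 in roots and 0.83 in stems at 24 h. PYR1 had 0.22 in stems at 24 h and -1.06 in stems at 11 days. The differences between these changes were not tested, and none of the 4 changes was called. Each AI group here held 2 libraries, and groups that small separate easily. The share of all rows with such a pattern was not counted, so nothing is read from it.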

How the results depend on the processing

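The count of members called in root against stem was within 1.5 times under every alternative run: 25 to 33 at 11 days (29 as reported) and 30 to 34 at 24 h (32 as reported), with 27 to 29 and 30 to 34 when 1 library was left out. At 11 days the replicate block gave 25 (7824 of 26521 rows) and both control arms 33 (12513 of 24062 rows). In no comparison with 3 or more pairs by the numbers in the sample names did every same-numbered pair correlate above 0.1. With fewer pairs, every same-numbered pair was above all others in AI-roots at 24 h (0.096 and 0.168, others up to 0.07) and AI-stems at 24 h (0.262, others -0.262). So it was in control-AI roots against stems at 24 h (0.086 and 0.112, others up to 0.03) and AI-stems at 11 days (0.109, others up to 0.094), but in no other comparison. The pairs were too few to show or exclude pairing. With the replicate block, AE-stems at 11 days gave 4 members instead of 0 (851 of 25699 rows instead of 0), among them CKX7 (-1.14, adjusted p = 0.0003992) and ERF071 (0.97, adjusted p = 0.005156). Stems between 24 h and 11 days then gave 0 instead of 1 (0 of 25354 rows), and control arms 6 instead of 3 (846 of 23097 rows). No block could be fitted for AI-stems at 11 days, and the block changed the count in no other treatment comparison. DESeq2 gave 1 member in AI-stems at 11 days (333 of 23659 rows, against 3 by edgeR). Between 24 h and 11 days it gave 1 in control roots (393 of 19671 rows) and 5 in control stems (969 of 26077 rows). Between control arms it gave 6 (2043 of 20040 rows). Without the filter there was 1 in control roots over time (80 of 38188 rows) and 6 between control arms (1913 of 37480 rows). 1 fit of all groups gave 1 and 7 members over time in control roots and stems (18 and 1520 of 27674 rows). All libraries gave 2 in the stems (312 of 22096 rows). Leaving out the libraries with an abundant unnamed row, added after seeing the data, gave 0 in the stems (65 of 23164 rows). With 1 library left out, members called ran from 0 to 3 in control stems over time and from 0 to 5 between control arms. The 3 came without control-AI replicate 3 at 11 days (706 of 22983 rows), and the 5 without control-AE replicate 1 (1518 of 22850 rows). In AI-stems at 24 h each such fit left 1 library in a group, assumed to vary like the other group, so no count is given. The rows that did not overlap in 11-day AE-roots, 3 as reported, ran from 3 to 18. In the 90 pairs of member and comparison refitted under the alternatives (calls, and treatment changes with an unadjusted p under 0.05), direction changed under none of those run. In 11-day AE-roots, which are described without a test, 4 members changed sign without control-AE replicate 5. Groups of 2 or 3 libraries, and levels of 1 to 3 CPM, limit the precision. The causes of these shifts were not tested.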
